A study of Mus musculus with 48 samples.

Results

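The genes described here are 10 genes of megakaryocytes and platelets: Itga2b, Itgb3, Gp5, Gp9, Vwf, Treml1, Pf4, F2r, F2rl2 and Plek. They were taken by symbol from a table of 24062 genes, and all 10 were found. The table holds RNA sequencing counts of 48 single cells of mouse fetal liver at embryonic day 14.5, all of 1 group labelled BFU-E, the burst-forming progenitor that gives rise to red cells. Per the labels, the cells were depleted on magnetic beads of lineage markers, among them CD41, the protein that Itga2b encodes, as well as CD34, Sca-1 and CD16/CD32, then kept for c-Kit and sorted for the lowest 10% of CD71. The labels name no strain, animal, culture or batch, and the columns of the table match no sample title. The 48 cells therefore count as 1 sample, no test between groups exists, and every number below describes these cells. Cells are named here by the place of their column in the count table, not by the numbers in the sample titles.

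Megakaryocytes and red cells arise from a shared progenitor, and GATA1 is needed by both. KLF1 is a transcription factor that drives the erythroid programme, while FLI1 is one of its counterparts on the megakaryocyte side. The 10 genes belong to the machinery by which platelets stick to a damaged vessel, sense thrombin and release granules, and some of them are already transcribed in megakaryocyte progenitors. Tgfbr3, the type III TGF-beta receptor, is a coreceptor that presents TGF-beta to its signalling receptors, and per the labels' protocols its protein was used to sort human BFU-E.

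Kit, which encodes the receptor used in the sort, reached 10 CPM, or counts per 1000000 counts of the scaled library, in 38 of 48 cells, and Tfrc, which encodes CD71, in 31. Cd34 reached it in 19 cells although CD34 was depleted as a protein, and Ly6a, which encodes a Sca-1 protein, in 1. The cells' totals lay between 246007 and 3211186 counts, with an SD of 674844 (n = 48). A gene is called held in a cell where it reached 10 CPM, which took 5 to 35 counts depending on the cell. Cells 32 and 42 each had at least 3 of 5 macrophage genes (C1qa, C1qb, C1qc, Cd5l and Timd4) at 100 CPM or more and are called macrophage-like. Some of the counts that change without them are given both ways, and correlations where a value crosses a threshold. Intervals are exact 95% Clopper-Pearson intervals, and they cover the counting of cells only. They do not cover error in the read counts, which carry no molecular identifiers. Where a count was 0, the share it allows is given as 3 over the number of cells, a one-sided approximation. It is smaller than the exact upper limit, which was 20.6% for 0 of 16 cells and 14.2% for 0 of 24.

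On GRCm38, Itga2b lies on chr11:102453297-102470122 and Itgb3 on chr11:104608000-104670476, 2.14 megabases apart. F2r lies on chr13:95601803-95618487 and F2rl2 on chr13:95696853-95702739, 78365 bases apart. Gp9 (chr6:87778072-87779768) and Vwf (chr6:125546774-125686679) share a chromosome without being neighbours. Gp5 lies on chr16:30307685-30310779, Treml1 on chr17:48359916-48367176, Pf4 on chr5:90772435-90773383 and Plek on chr11:16971206-17052381. Values are counts over the annotated exons of each gene. Plek alone among the 10 shares exon bases with another gene, Cnrip1 on the opposite strand, and the strand setting of the counting is not given in the sources used here. Cnrip1 reads were found in 5 cells, in 2 of them at 10 CPM or more.

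RefSeq promoters of GRCm38.p6 were given for 8 of the 10 genes. The 250 bases before the start are printed for Gp9, F2rl2, Plek and F2r, because these are the genes that were held in each of the 5 cells with the most of the 10 genes, described below. For Plek the start given is an inner one. Its promoter lies within the annotated gene, chr11:16971206-17052381, and not at the gene's outer start at base 17052381. The printed promoters of F2rl2 and F2r run partly into their annotated genes. Distances below are counted from the RefSeq starts. Capitals mark GATAA, the core letters that GATA factors recognise, searched on both strands.
Gp9 promoter, chr6:87777820-87778069, plus strand: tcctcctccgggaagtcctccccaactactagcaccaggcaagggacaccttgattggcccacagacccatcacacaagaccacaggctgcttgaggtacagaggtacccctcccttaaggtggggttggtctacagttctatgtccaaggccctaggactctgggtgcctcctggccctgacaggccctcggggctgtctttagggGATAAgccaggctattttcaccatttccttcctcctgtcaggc
F2rl2 promoter, chr13:95696670-95696919, plus strand: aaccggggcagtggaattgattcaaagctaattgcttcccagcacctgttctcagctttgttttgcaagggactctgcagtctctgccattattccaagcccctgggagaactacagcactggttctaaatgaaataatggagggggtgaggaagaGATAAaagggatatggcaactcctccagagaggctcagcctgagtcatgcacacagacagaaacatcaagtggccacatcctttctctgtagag
Plek promoter, chr11:17008719-17008968, minus strand: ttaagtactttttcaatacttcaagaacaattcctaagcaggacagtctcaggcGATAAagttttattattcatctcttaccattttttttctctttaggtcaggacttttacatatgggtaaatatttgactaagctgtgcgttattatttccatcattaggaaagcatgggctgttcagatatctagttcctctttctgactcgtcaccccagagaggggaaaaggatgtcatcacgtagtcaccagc
F2r promoter, chr13:95618467-95618716, minus strand: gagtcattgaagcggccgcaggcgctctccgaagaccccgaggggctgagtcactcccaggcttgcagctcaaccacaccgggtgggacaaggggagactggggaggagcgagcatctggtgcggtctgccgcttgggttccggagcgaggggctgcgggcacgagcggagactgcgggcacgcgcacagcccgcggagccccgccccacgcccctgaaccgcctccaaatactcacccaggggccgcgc

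GATAA began 43 bases before the start in Gp9, 94 in F2rl2 and 196 before the inner start of Plek. It was not among these letters in F2r. Gp5 had 2 matches, 93 and 77 bases before its start. In all, 4 of the 8 promoters held GATAA, against 22.6% of 32851 mouse promoters of the same length. GGAAG, letters found in sites of ETS factors such as FLI1, was in 6 of the 8 promoters and in 64.1% of all promoters. Both stood together in 3 of the 8 and in 13.2% of all. A match of one motif can share 1 base with a match of the other. A match is a description of the letters and not evidence of binding.

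The 10 genes fell into 2 that were common and 8 that were rare. Plek had a read in 45 of 48 cells and was held in 23, and F2r had a read in 37 and was held in 24. The other genes were held in 1 to 11 cells each and had a median of 0 CPM. Per kilobase of exon, the mean level over 48 cells was 56.6 CPM for Plek, 38.2 for F2r, 29.2 for Gp9, 22.1 for Pf4, 18.8 for F2rl2 and 16.6 for Treml1. It was 1.83 CPM per kilobase for Itga2b, 0.915 for Vwf, 0.558 for Itgb3 and 0.419 for Gp5. In each gene the SD over cells exceeded the mean, so neighbours in this order do not differ beyond their spread. Macrophage-like cell 32 gave 70.9% of the summed Pf4 level, and the place of Pf4 in this order rests on that cell. For comparison, Gata1 had a mean of 118 CPM per kilobase, Klf1 46.4 and Tgfbr3 25.5.

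**Figure D1:**
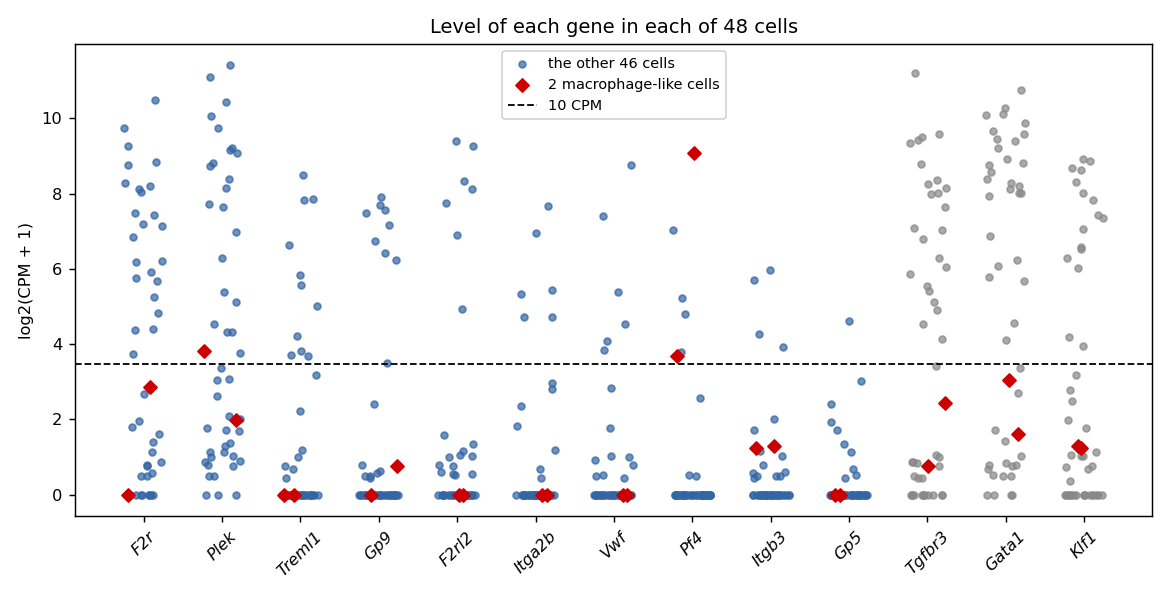
Level of each of the 10 genes and of Tgfbr3, Gata1 and Klf1 in 48 cells, as log2(CPM + 1) on the vertical axis. Each point is 1 cell, red diamonds are the 2 macrophage-like cells, and the dashed line is 10 CPM. F2r and Plek were held in 24 and 23 cells, and the other 8 genes in 1 to 11.

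Itga2b and Itgb3 encode the integrin chains that pair to form the platelet fibrinogen receptor. Itga2b was held in 6 cells, at 202 CPM in cell 31, 123 in cell 48, 42.2 in cell 16, 38.9 in cell 44, 25.5 in cell 28 and 25.4 in cell 33. Over all 48 cells it averaged 9.97 ± 34.4 CPM (SD, n = 48). Itgb3 was held in 4 cells, at 61.2 CPM in cell 45, 50.8 in cell 11, 18.2 in cell 2 and 14.2 in cell 36. No cell held both chains, but with 6 and 4 holding cells of 48 this cannot show that the chains exclude each other. Their Spearman correlation over 48 cells was 0.0299, and cell 45, the highest for Itgb3, had 4.14 CPM of Itga2b. Depletion on CD41 removes cells by protein, and its part in these levels was not tested.

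Gp9 and Gp5 encode parts of the receptor complex that binds von Willebrand factor, and Vwf encodes that factor. Gp9 was held in 9 cells, from 10.4 CPM in cell 31 to 241 CPM in cell 41, with a median of 142 among them. It averaged 25.8 ± 61.8 CPM (SD, n = 48). Vwf was held in 6 cells and was highest in cell 28 at 432 CPM and cell 45 at 168 CPM, followed by 41.1 CPM in cell 40, 21.99 in cell 10, 15.9 in cell 31 and 13.3 in cell 48. Cell 28 alone gave 61.3% of the summed Vwf level. Gp5 was held only in cell 33, at 23.5 CPM, and was at most 7.17 CPM elsewhere. Gp9 was held in 5 of the 6 Vwf cells, and those were 5 of the 9 Gp9 cells.

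Treml1 encodes a receptor of platelet granule membranes, and Pf4 the chemokine platelet factor 4. Treml1 was held in 11 cells and was highest at 361 CPM in cell 1, 228 in cell 29 and 227 in cell 37. None of these cells held Gp9, Vwf or Itga2b, and cells 1 and 37 held no other gene of the 10. Pf4 was held in 6 cells, and its highest level by far, 543 CPM, was in macrophage-like cell 32. In that cell the macrophage genes stood at 9740 CPM for C1qb and 2359 CPM for Timd4. Macrophage-like cell 42 had 11.8 CPM of Pf4. Without these 2 cells Pf4 was held in 4 cells and averaged 4.59 ± 20.0 CPM (SD, n = 46), against 15.9 ± 80.1 CPM (SD, n = 48) with them.

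F2r and F2rl2 encode the thrombin receptors PAR1 and PAR3, of which mouse platelets are known to use PAR3, as a helper of PAR4, rather than PAR1. F2r was held in 24 cells, with a lowest level of 12.4 CPM, a median of 143 and a highest of 1424 CPM in cell 3. F2rl2 was held in 7 cells, at 673 CPM in cell 10, 612 in cell 45, 323 in cell 7, 275 in cell 21, 213 in cell 41, 117 in cell 31 and 29.6 in cell 48. The next cell had 2.02 CPM, which left a gap between the cells with and without F2rl2. All 7 F2rl2 cells also held F2r and Gp9, while they made up 29.2% of the F2r cells and 77.8% of the Gp9 cells.

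Plek encodes pleckstrin, a protein kinase C substrate abundant in platelets and also made by leukocytes. It was held in 23 cells, with a lowest level of 12.6 CPM, a median of 282 and a highest of 2703 CPM in cell 41. Macrophage-like cell 42 was 1 of them, so that 22 of the other 46 cells held Plek. Of the 23 cells, 11 held Tgfbr3 and 12 did not. Plek had a median of 336 CPM in the 11 and 179.6 CPM in the 12, and the ranges of both sets overlapped. Without cell 42, the median in the 11 remaining cells without Tgfbr3 was 282 CPM. In the 11 Plek cells with Tgfbr3, 8 neutrophil and monocyte markers such as Mpo and Elane summed to a median of 195 CPM (range 18.3 to 1093), with 0 to 5 of the 8 at 10 CPM. In the 12 Plek cells without Tgfbr3 that sum had a median of 8803 CPM (range 717 to 75281), with 2 to 8 at 10 CPM. Without cell 42 the median over the 11 remaining cells was 9259 CPM over the same range. The erythroid marker sum of 15 genes, Gata1 and Klf1 among them, had a median of 1997 CPM with Tgfbr3 and 90.5 CPM without it. The 11 cells held 2 to 8 of the 10 genes, while the 12 cells held at most 2. The part of other lineages' RNA in the Plek level was not tested.

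Most cells held few of the 10 genes, and a small set held most of them. Of 48 cells, 10 held none, 15 held 1, 10 held 2, 5 held 3 and 3 held 4. No cell held 5, and the remaining 5 cells held 6, 7, 7, 7 and 8. Thus 13 cells held 3 or more (27.1%, 95% interval 15.3 to 41.8%) and 5 cells held 6 or more (10.4%, 3.47 to 22.7%). These counts did not change without the macrophage-like cells. The step at 6 was chosen after the counts were seen, because of the gap at 5.

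**Figure D2:**
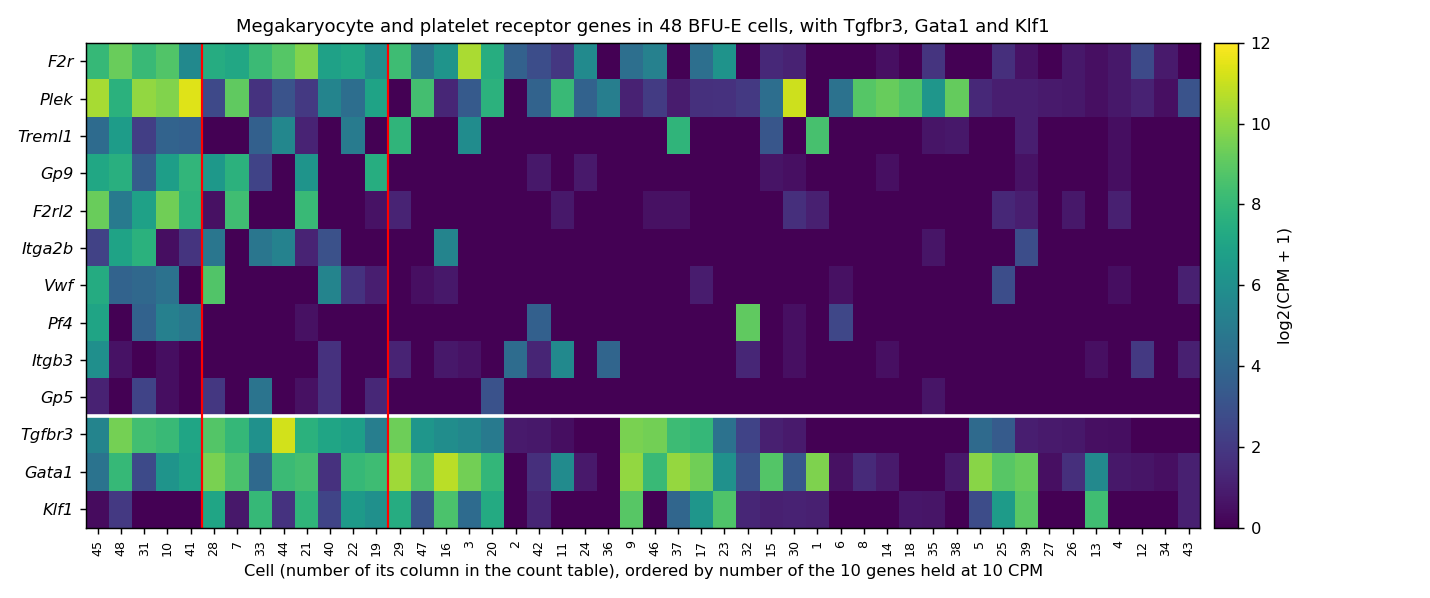
Level of the 10 genes (upper rows) and of Tgfbr3, Gata1 and Klf1 (lower rows) in 48 cells, as log2(CPM + 1) by colour. Cells are ordered by the number of the 10 genes held, and red lines divide cells with 6 or more, 3 to 5 and fewer than 3; the 5 cells at the left share Gp9, F2r, F2rl2 and Plek and are dark for Klf1.

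Cell 45 held 8 of the 10 genes. It had 1375 CPM of Plek, 612 of F2rl2, 262 of F2r, 168 of Vwf, 142 of Gp9, 129 of Pf4, 61.2 of Itgb3 and 17.4 of Treml1. Its total of 3181280 counts was among the highest, and 34 counts were needed there for 10 CPM. Cell 10 held 7 genes, with 849.5 CPM of Plek, 673 of F2rl2, 429 of F2r, 106 of Gp9, 36.2 of Pf4, 21.99 of Vwf and 13.1 of Treml1. Cell 31 held 7, with 1067 CPM of Plek, 277 of F2r, 202 of Itga2b, 117 of F2rl2, 15.9 of Vwf, 12.8 of Pf4 and 10.4 of Gp9. These 3 cells had Plek as their leading gene of the 10. Cell 48 also held 7, but was led by 607 CPM of F2r and had 200.5 of Plek, 187 of Gp9, 123 of Itga2b, 99.0 of Treml1, 29.6 of F2rl2, 13.3 of Vwf and no read of Pf4. Cell 41 held 6, with 2703 CPM of Plek, 241 of Gp9, 213 of F2rl2, 50.3 of F2r, 27.1 of Pf4 and 11.96 of Treml1.

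All 5 cells held Gp9, F2r, F2rl2 and Plek, 4 held Vwf, Treml1 and Pf4, though not the same 4, 2 held Itga2b, 1 held Itgb3 and none held Gp5. In the other 43 cells, Gp9 was held in 4, F2rl2 in 2, Vwf in 2, Pf4 in 2, Treml1 in 7, Itga2b in 4, Itgb3 in 3, Gp5 in 1, Plek in 18 and F2r in 19. Since the 5 cells were picked for holding many of these genes, these counts describe the choice. Where every cell was thinned to 246007 counts, cells 31 and 41 fell to 5 genes each and 3 cells held 6 or more. Cell 28 rose from 4 genes to 5, so the gap at 5 was not there after thinning.

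Cells with 3 or 4 of the genes were more mixed. Cell 7 held Gp9, F2r, F2rl2 and Plek, as the 5 cells did. Cell 28 held Itga2b, Gp9, Vwf and F2r, and cell 33 held Itga2b, Gp5, Treml1 and F2r. Cells 19, 21, 22, 40 and 44 held 3 each, and F2r was among them every time. Cells 22, 40 and 44 had only 246007, 507732 and 357378 counts, so that 5 counts reached 10 CPM. Cell 21 also had 338 CPM of C1qb and 418 CPM of Cd5l, macrophage genes that were near 0 in the 5 cells.

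Of the 45 pairs of the 10 genes, 38 were held together in at least 1 cell. Their Spearman correlation over 48 cells ran from −0.0759 to 0.608 with a median of 0.269, and 4 pairs were below 0. The highest was Gp9 with F2rl2. Itgb3 was in all 4 pairs below 0. The cells count as 1 sample, differ in depth and share many values at 0, so correlations are given as a description only. Neither the count of pairs nor their correlations are set against pairs of other genes. A cell holding many of the 10 genes adds many pairs to that count. The correlation of each of the 10 genes with the total count of the cell ran from −0.159 for Itga2b to 0.267 for F2rl2.

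Gata1, the factor shared by both lineages, was held in 28 cells with a median of 60.1 CPM over all 48. Cells with Gata1 held 3 or more of the 10 genes in 11 of 28 cases (39.3%, 21.5 to 59.4%), against 2 of 20 cells without it (10%, 1.23 to 31.7%), or 2 of 18 without the macrophage-like cells (11.1%). These intervals overlap. All 11 Treml1 cells held Gata1, as did 8 of 9 Gp9 cells and 6 of 7 F2rl2 cells. For Plek the order was the other way, with 11 of 28 cells with Gata1 (39.3%) and 12 of 20 without (60.0%). Median total counts were 2074378 with Gata1 and 1659250 without.

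The Spearman correlation with Gata1 over 48 cells was at least 0.3 for 3 of the 10 genes, against 5.57% of 8600 genes. These were F2r at 0.372, Treml1 at 0.325 and F2rl2 at 0.303. F2rl2 was at 0.276 without the macrophage-like cells and below 0.3 under each of the other 6 settings tried, and Treml1 at 0.276 without the 5 cells of lowest total count, so the count of 3 holds for the main setting only. None of the 10 was at or below −0.3, against 5.34% of all genes, and Plek was lowest at −0.200. The median was 0.117, against 0.0182 over all genes. Within the 28 cells that held Gata1 the median was −0.208, against −0.00247 over all genes, and 9 of the 10 were below 0. There 4 of the 10 were at or below −0.3, against 6.07% of 8599 genes, and none was at or above 0.3, against 5.47%. These were Plek at −0.558, Pf4 at −0.382, Gp5 at −0.363 and Gp9 at −0.330, and F2r was at −0.265. Pf4 and Gp5 are not among the genes of the background. Itgb3, Gp5 and Pf4 were read too rarely to pass the minimum set for the genes of this background, so that 7 of the 10 passed it.

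Klf1 was held in 16 cells, all of which held Gata1. No cell with Klf1 held 6 or more of the 10 genes (0 of 16, which allows a share of up to 18.75%), against 5 of 32 cells without Klf1 (15.6%, 5.28 to 32.8%), and at this number of cells a difference was not detectable. For 3 or more genes the counts were 5 of 16 cells with Klf1 (31.3%, 11.02 to 58.7%) and 8 of 32 without (25%, 11.5 to 43.4%), or 8 of 30 without the macrophage-like cells (26.7%). In the 5 cells with 6 or more genes, Klf1 was 0 CPM in cells 10, 31 and 41, 0.296 CPM in cell 45 and 2.96 CPM in cell 48. Gata1 in those cells was 74.1 CPM in cell 10, 5.498 in cell 31, 116 in cell 41, 22.5 in cell 45 and 259 in cell 48. So 4 of the 5 held Gata1 without Klf1, a state found in 12 cells in all. Of these 12 cells, 6 held 3 or more of the 10 genes, as did 5 of the 16 cells with both factors and 2 of the 20 with neither.

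The Spearman correlation with Klf1 over 48 cells had a median of 0.0308 for the 10 genes, against 0.0122 over all genes. It was at least 0.3 for 1 of the 10, F2r at 0.339, against 4.77% of 8600 genes, and at or below −0.3 for none, against 5.35%, with Plek at −0.298. Plek was past that threshold under 5 other settings over all or most of the cells, at −0.311 to −0.393, so the count of none holds for the main setting, plain totals and the 46 cells. Within the 28 cells that held Gata1 the median was −0.181, against 0.00920 over all genes, and 8 of the 10 were below 0. There 3 of the 10 were at or below −0.3, against 6.71% of 8599 genes, and none was at or above 0.3, against 7.63%. These were Plek at −0.599, F2rl2 at −0.421 and Pf4 at −0.351, of which Pf4 is not among the genes of the background. F2r, positive over all cells, was −0.00192 there.

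Tgfbr3 was held in 24 cells, and the 13 cells with 3 or more of the 10 genes were all among them. The counts were 13 of 24 cells with Tgfbr3 (54.2%, 32.8 to 74.4%) and 0 of 24 without, which allows a share of up to 12.5% (0 of 22 without the macrophage-like cells, up to 13.6%). The 0 did not hold at every level: without Tgfbr3 it was 5 of 20 cells at 1 CPM, 1 of 23 at 5 CPM, 1 of 33 at 100 CPM and 1 of 24 after thinning. For 2 or more genes they were 18 of 24 with Tgfbr3 (75.0%, 53.3 to 90.2%) and 5 of 24 without (20.8%, 7.13 to 42.2%), or 4 of 22 without the macrophage-like cells (18.2%). F2r followed Tgfbr3 most closely, held in 22 of 24 cells with it and 2 of 24 without. Gp9, F2rl2, Itga2b and Vwf were held in 9, 7, 6 and 6 cells, and every one of those cells held Tgfbr3. Treml1 was held in 10 cells with Tgfbr3 and 1 without. Plek and Itgb3 did not follow it, with Plek held in 11 cells with Tgfbr3 and 12 without, and Itgb3 in 1 with and 3 without. Median total counts were 2017179 with Tgfbr3 and 1825271 without.

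**Figure D3:**
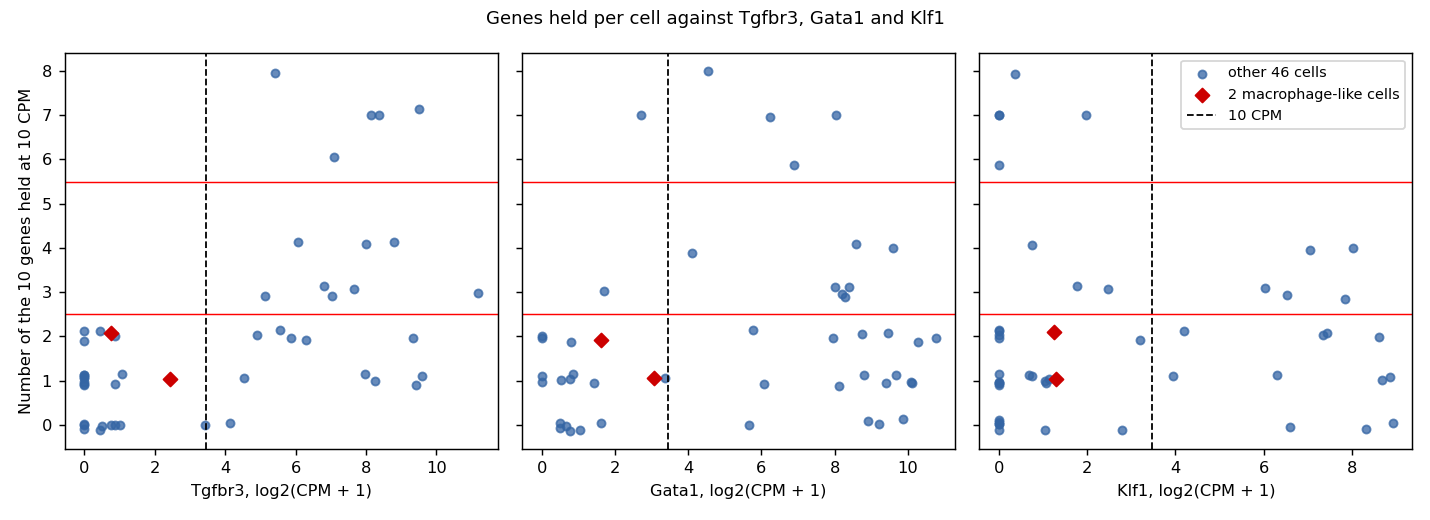
Number of the 10 genes held at 10 CPM (vertical axis, points spread slightly to show overlap) against log2(CPM + 1) of Tgfbr3, Gata1 and Klf1 in 48 cells. Red lines mark 3 and 6 genes, the dashed line is 10 CPM and red diamonds are the 2 macrophage-like cells; the 13 cells with 3 or more genes lie right of the Tgfbr3 line, and the 5 cells with 6 or more lie left of the Klf1 line.

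F2r and Plek, as the common genes, weigh most in these counts. Over the other 8 genes, a set formed after the values were seen, 10 cells held 2 or more and 7 held 3 or more, and all of these held Tgfbr3. The Spearman correlation with Tgfbr3 over 48 cells was at least 0.3 for 5 of the 10 genes, against 4.53% of 8600 genes. They were F2r at 0.706, Itga2b at 0.466, F2rl2 at 0.376, Treml1 at 0.358 and Vwf at 0.318. None was at or below −0.3, against 6.44%, and Itgb3 was lowest at −0.122. The median was 0.2999, against 0.000574 over all genes. Tgfbr3 itself had a correlation of 0.677 with Gata1 and 0.468 with Klf1, so these relations are not separate from each other. Within the 28 Gata1 cells the median with Tgfbr3 was 0.151 for the 10 genes. F2r at 0.509 and Itga2b at 0.304 were then at or above 0.3, against 4.19% of 8599 genes, and none was at or below −0.3, against 7.97%.

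In the 5 cells with 6 or more of the genes, Tgfbr3 stood at 284 CPM in cell 10, 327 in cell 31, 134 in cell 41, 41.4 in cell 45 and 726 in cell 48. Its highest level of all, 2335 CPM, was in cell 44, which held Itga2b, Treml1 and F2r.

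Other genes of the megakaryocyte lineage were then set against the mean log2(CPM + 1) of 9 of the 10 genes, Pf4 left out because it was read in fewer than 10 cells, over the 46 cells that were not macrophage-like. Of 8594 genes, 3.56% had a correlation of at least 0.3 with that mean and 3.05% one at or below −0.3, around a median of 0.000555. Of 20 other platelet receptors 8 were read often enough, with a median correlation of 0.318. Of these, 4 were at or above 0.3, among them F2rl3 at 0.486, the thrombin receptor PAR4, Cd9 at 0.397, a tetraspanin, and Pear1 at 0.364, a platelet contact receptor. Cd9 was 391 CPM in cell 10, 596 in cell 31, 1264 in cell 41, 394 in cell 45 and 4.43 in cell 48. It was thus held in 4 of these 5 cells, and in 21 of the other 43. None of the 8 receptors was at or below −0.3. The lowest was Fcer1g at −0.189, held in 1 of these 5 cells and in 27 of the other 43.

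Of 19 transcription factors all were read often enough, and their median correlation was 0.219. Of these, 6 were at or above 0.3, among them Mef2c at 0.580, Fli1 at 0.450, Gata2 at 0.429, Zfpm1, the GATA1 partner FOG1, at 0.390, and Meis1 at 0.311. Fli1 was 1669 CPM in cell 10, 2219 in cell 31, 383 in cell 41, 1077 in cell 45 and 768 in cell 48, against a median of 184 CPM over all 48 cells. Gata2 ran from 200.4 to 478 CPM in the 5 cells, against a median of 98.6 over all 48. Both were common elsewhere, held in 31 and 27 of the other 43 cells. None of the 19 was at or below −0.3. The lowest was Runx1 at −0.215, with 5.66 to 34.8 CPM in the 5 cells, against a median of 33.7 over all 48. Mafk at −0.126 and Mafg at −0.0926 were also below 0.

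Of 21 genes of the platelet cytoskeleton and signalling 17 were read often enough, with a median correlation of 0.237. The 6 at or above 0.3 were Tln1 at 0.476, Lat, Gucy1a3 at 0.429, Gna13, Rap1b and Fermt3. Tln1 encodes talin and Fermt3 kindlin-3, both of which activate integrins. Rasgrp2, an activator of Rap1 in platelets, was at −0.329. Gucy1a3, a subunit of the nitric oxide receptor, was held in 4 of the 5 cells with 6 or more of the genes and in 1 of the other 43. Of 16 granule and secreted genes 7 were read often enough, with a median of 0.169, and Mmrn1 at 0.755 and Angpt1 at 0.370 were at or above 0.3.

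**Figure D4:**
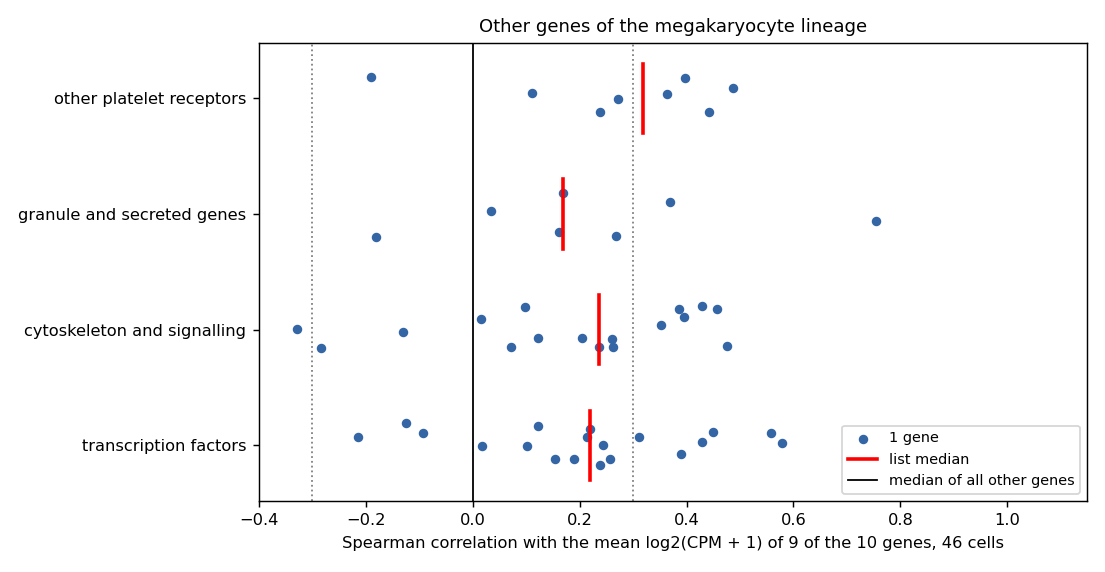
Spearman correlation of other megakaryocyte lineage genes with the mean log2(CPM + 1) of 9 of the 10 genes in 46 cells, by list. Each point is 1 gene, red bars are the list medians (0.318, 0.169, 0.237 and 0.219 from top to bottom), the black line is the median of all genes and dotted lines mark −0.3 and 0.3.

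Other genes of these lists differed widely in how often they were read. Gp6, Ptgir, Ppbp, Tubb1 and Myl9 had no read in any of the 48 cells, which allows a share of up to 6.25% of cells with a read. Gp1bb and Selp each had a read in 2 cells and never reached 10 CPM. Gp1ba, which encodes the part of the receptor complex that touches von Willebrand factor, was held in 0 of the 5 cells and 3 of the other 43. Clec1b, the podoplanin receptor, was held in 1 of the 5 cells, at 18.4 CPM in cell 10, and 1 of the other 43, macrophage-like cell 42, at 946 CPM. Further genes of the same lists, chosen after their values were seen, were held in some of the 5 cells. P2ry1, an ADP receptor, was held in 3 of the 5 and 4 of the other 43, and Rab27b, a granule transport gene, in 3 of the 5 and 3 of the other 43. Thbs1, which encodes thrombospondin 1, was held in 2 of the 5, at up to 1681 CPM, and 1 of the other 43. Tbxa2r, the thromboxane receptor, and Pdgfb, a growth factor of platelet granules, were each held in 2 of the 5 and none of the other 43.

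Markers of other lineages were read in the same 5 cells. The sum of 12 macrophage markers ran from 0.355 to 12.8 CPM, none reached 10 CPM, and C1qc and Timd4 had no read. The sum of 7 mast cell and basophil markers was at most 2.36 CPM. The sum of 8 neutrophil and monocyte markers ran from 18.3 to 494 CPM, with 1 or 2 of the 8 at 10 CPM in each cell. These were Mpo in every cell, at 13.2 to 492 CPM, and Lyz2 in cell 45 at 128 CPM. The sum of 8 endothelial markers ran from 1.22 to 97.8 CPM, with a median of 12.3. Pecam1, Kdr, Emcn and Flt1 had no read in these 5 cells. In the 35 cells with fewer than 3 of the 10 genes the endothelial sum ran from 0 to 637 CPM, with a median of 47.2. Cell 45, which was second for Vwf, held 3 of the 8, with 57.9 CPM of Egfl7, 24.8 of Eng and 15.1 of Tek. Cell 10 had 47.9 CPM of Tek and cell 48 had 11.8 CPM of Eng. The part of these markers' source in the Vwf level was not tested. Endothelial cells also make von Willebrand factor, and the same markers summed to 0 to 118 CPM in the 8 cells with 3 or 4 of the 10 genes, which include cell 28, the highest for Vwf.

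The 8 stem and early progenitor markers summed to 286 to 2993 CPM in the 5 cells, with 2 or 3 of the 8 at 10 CPM, against 16.8 to 2260 CPM in the 8 cells with 3 or 4 of the genes and 1.07 to 3607 CPM in the 35 cells with fewer. Cd34 was 578 CPM in cell 41 and at most 1.18 CPM in the other 4.

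Erythroid RNA was present as well. In the 5 cells the 15 erythroid markers summed to 1673 to 3110 CPM, with 3 to 7 of the 15 at 10 CPM, against 640 to 4371 CPM in the 8 cells with 3 or 4 of the genes and 5.39 to 8032 CPM in the 35 cells with fewer. Car2, a carbonic anhydrase, was the highest of the 15 in each of the 5 cells, from 756 CPM in cell 45 to 2053 CPM in cell 48. Epor, the erythropoietin receptor, was 277 CPM in cell 48 and 114 CPM in cell 10, and was at most 0.611 CPM in the other 3. Kit was 398 CPM in cell 48, 64.7 in cell 45, 61.0 in cell 41, 17.1 in cell 31 and 1.42 in cell 10.

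Among all genes that passed the minimum, the 10 nearest to the mean level of the platelet genes included Mmrn1, Muc13 at 0.628, Apoe at 0.585, Mef2c, Ptrf at 0.578, Nrgn at 0.568, Kcnj5 at 0.564, Slc22a3 at 0.546 and Actb at 0.523. Mmrn1, which encodes multimerin 1 of platelet granules, was 641 CPM in cell 10, 261 in cell 48, 115 in cell 41, 103 in cell 31 and 31.6 in cell 45. It was thus held in 5 of 5 of these cells and in 9 of the other 43. The 5 farthest in the other direction were Mtfr1 at −0.593, Ap3s1 at −0.551, D16Ertd472e at −0.537, Rgcc at −0.518 and Clec12a at −0.499. Clec12a, a myeloid lectin receptor, was at most 1.18 CPM in the 5 cells and was held in 11 of the 48. The mean level of the platelet genes had a correlation of 0.522 with Tgfbr3, 0.244 with Gata1, 0.122 with Klf1 and 0.0466 with the total count.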

How the data were processed

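RNA of 48 single BFU-E cells was amplified with SMART-Seq chemistry in a Fluidigm C1 system, per the labels' protocols, which also state that chambers were inspected for a cell. No doublet caller was run. Per the submitters' processing notes, TopHat2 2.0.12, featureCounts 1.4.6 and mm10 were used. The authors deposited raw counts per gene for 24062 genes, of which 9946 had no read. They also deposited log2 values, which equal log2 of the count over a median-of-ratios size factor, plus 1, within 1e-06.

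From the counts, CPM was computed with TMM library sizes (edgeR 4.0.16, R 4.3.3), with factors from 0.419 to 1.70, and log2 values with a pseudocount of 1. Ranks and intervals used Python 3.11.15 with scipy 1.17.1. The background was 8601 genes that were read in 10 or more cells and averaged 5 CPM or more. With 1 sample no test was made. The correlation step was tested on simulated data. Exon lengths are from GENCODE for GRCm38.

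The genes, lists and thresholds were chosen with earlier results of these data known. Named genes are the 10 genes, Gata1, Klf1, Tgfbr3, genes of the 4 lineage lists, markers, and the 10 genes of highest and 5 of lowest correlation with the mean level; some of these are not reported here. Alternatives were other scalings, levels of 1, 5, 20 and 100 CPM, thinning to 246007 counts, leaving out cells, and Pearson's r.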

Additional observations from a re-analysis of the deposited data

How the results depend on the processing

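The count of 13 cells with 3 or more of the 10 genes was 26 at a level of 1 CPM, 6 at 100 CPM and 7 over the 8 genes other than F2r and Plek. The count of 5 cells with 6 or more was 9 at 1 CPM, 3 at 20 CPM, 1 at 100 CPM and 3 after thinning. With the level applied to the second gene as well, the share of cells with 3 or more was 69.4% for Gata1, 70.4% for Klf1 and 75.0% for Tgfbr3 at 1 CPM, against 8.33%, 33.3% and 25% of cells without them. At 100 CPM it was 13.6% with Gata1 and 11.5% without, and 0% with Klf1 and 15.8% without. For Tgfbr3 it was 29.2% over the 8 genes. The median correlation with Klf1 was −0.0730 after thinning and −0.181 within the Gata1 cells, where the median with Tgfbr3 was 0.151. The correlation of F2r with Klf1 was −0.00192 within the Gata1 cells, against 0.339 over all 48. The cause was not tested. Plain totals and the authors' log2 table gave 13 and 5 cells again. Without the 5 shallowest cells, 10 cells held 3 or more and 5 held 6 or more.

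Depth limits the rare genes: a cell needed 5 to 35 counts for 10 CPM, and Gp5 was held in 1 cell. The 6-gene step and the set of 8 genes were chosen after seeing the data. No paired analysis was possible because there is 1 group and the columns carry no replicate number.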
